A study of Mus musculus with 24 samples.

Results

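The 9 genes described here are enzymes and carriers of the glutamate-glutamine cycle in mouse brain. They were chosen by name and function, with earlier results of these data known, and make up 9 of the 52636 gene identifiers in each count file. They are Glul (glutamine synthetase), Gls2 (a glutaminase), Glud1 (glutamate dehydrogenase), Got1 and Got2 (the cytosolic and mitochondrial aspartate aminotransferases), and the amino acid carriers Slc38a1, Slc38a2, Slc38a3 and Slc38a5. The list is not the whole cycle. All 9 passed the filter on low counts that left 19726 genes for testing.

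The study asked how the brain responds when EAAT2, the main glutamate uptake carrier and the product of Slc1a2, is removed from neurons or from astrocytes. Total RNA from brain was sequenced from 24 mice, 6 in each of 4 groups. In the syn line, named for a neuronal Cre driver, the Cre-positive mice are labelled syn-Cre+ with EAAT2−/− and their controls syn-Cre− with EAAT2+/+. In the gfap line, named for an astrocytic driver, the Cre-positive mice are labelled gfapCre+ with EAAT2Δ/+, so that the label leaves 1 intact allele, and their controls gfap-Cre− with EAAT2+/+. No group carries a treatment in the labels, and they state neither age nor sex. The drivers act in 1 cell class, whereas the RNA comes from all cells of the tissue, so fewer cells of a type and less RNA per cell cannot be told apart in any value below.

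Glutamate released at synapses is taken up mainly by astrocytes, which use glutamine synthetase to join it with ammonia as glutamine. Glutamine leaves astrocytes through the system N carriers SNAT3 (Slc38a3) and SNAT5 (Slc38a5), which can run in either direction, and enters other cells, neurons among them, through the system A carriers SNAT1 (Slc38a1) and SNAT2 (Slc38a2). Glutaminase turns it back into glutamate. Glutamate dehydrogenase and the aspartate aminotransferases connect glutamate to the citric acid cycle, and the aminotransferases also serve the malate-aspartate shuttle, which carries reducing equivalents into mitochondria.

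In the GENCODE M21 annotation of GRCm38, Glul (ENSMUSG00000026473) lies on the plus strand at chr1:153899944-153909723, Gls2 (ENSMUSG00000044005) on the plus strand at chr10:128194457-128210004, and Glud1 (ENSMUSG00000021794) on the plus strand at chr14:34310727-34345265. Got1 (ENSMUSG00000025190) lies on the minus strand at chr19:43499752-43524605 and Got2 (ENSMUSG00000031672) on the minus strand at chr8:95864134-95888547. Slc38a1 (ENSMUSG00000023169) and Slc38a2 (ENSMUSG00000022462) are neighbours on the minus strand, at chr15:96571418-96642913 and chr15:96687392-96699730. Slc38a3 (ENSMUSG00000010064) lies on the minus strand at chr9:107650634-107669530 and Slc38a5 (ENSMUSG00000031170) on the plus strand at chrX:8271133-8280179. Exons of 3 members overlap a protein-coding or unclassified gene on the other strand: Glul shares 116 bases with Teddm2, Gls2 97 bases with Spryd4 and Got2 434 bases with Gm45760. Whether the counting used strand is not stated, and reads of those bases could come from either gene. Their partners averaged 86.7, 319 and 2.92 counts per library. The lowest count of a member in any library was 60648 for Glul, 594 for Gls2 and 7779 for Got2.

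Glud1, Got1 and Got2 differed between the mouse lines in the same direction, as described below, and the sequence just before the start of each gene is shown to set the 3 side by side. Slc38a2, which differed the other way, is shown beside them. The sequences run 5′ to 3′ on the gene's strand in build GRCm38.p6 and come from RefSeq, whose table held 6 of the 9 members. Each covers the 250 bases before the RefSeq start, less any base that the GENCODE gene also covers, which removed 146 bases from Got2 and 2 from Slc38a2. The windows are chr14:34310477-34310726 for Glud1, chr19:43524606-43524855 for Got1, chr8:95888548-95888651 for Got2 and chr15:96699731-96699978 for Slc38a2. Capitals mark matches to any of the 6 motifs searched.
Glud1: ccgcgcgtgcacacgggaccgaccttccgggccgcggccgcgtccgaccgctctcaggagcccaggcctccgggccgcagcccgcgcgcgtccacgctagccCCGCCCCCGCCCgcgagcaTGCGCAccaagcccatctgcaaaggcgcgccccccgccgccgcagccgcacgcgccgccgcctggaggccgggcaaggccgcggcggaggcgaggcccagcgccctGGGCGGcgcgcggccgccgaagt
Got1: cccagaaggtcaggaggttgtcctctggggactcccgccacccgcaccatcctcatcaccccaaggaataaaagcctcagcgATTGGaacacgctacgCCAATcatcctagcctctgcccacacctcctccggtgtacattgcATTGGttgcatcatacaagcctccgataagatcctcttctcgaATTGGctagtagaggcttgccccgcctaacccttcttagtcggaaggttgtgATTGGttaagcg
Got2: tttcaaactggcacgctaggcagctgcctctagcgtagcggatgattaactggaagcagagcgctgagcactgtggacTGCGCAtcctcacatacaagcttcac
Slc38a2: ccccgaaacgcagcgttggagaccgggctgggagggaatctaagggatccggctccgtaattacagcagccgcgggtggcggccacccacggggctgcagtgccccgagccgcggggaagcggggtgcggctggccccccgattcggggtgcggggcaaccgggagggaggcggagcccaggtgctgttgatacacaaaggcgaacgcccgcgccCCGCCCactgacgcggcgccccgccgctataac

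The motifs were searched on both strands of the full 250 bases: the NRF1 core TGCGCA, the CCAAT box CCAAT, the GC box GGGCGG, the cAMP response element TGACGTCA, the E-box CACGTG and the amino acid response element ATTGCATCA. No 2 of these contain one another. Glud1 held 1 NRF1 core and 3 GC boxes, and Got2 held 1 NRF1 core, whereas Got1 held 5 CCAAT boxes and none of the others. Slc38a2 held 1 GC box. Among 32851 promoter windows of the same length, 6.43% held the NRF1 core, 33.8% a CCAAT box, 32.7% a GC box, 1.55% the cAMP response element, 6.02% the E-box and 0.167% the amino acid response element. None of the 6 motifs occurred in all 3 of Glud1, Got1 and Got2. GC content of the 250 bases was 82% for Glud1, 54.4% for Got1, 59.2% for Got2 and 72% for Slc38a2. These are matches of letters and show no binding. Only exact matches within the 250 bases were counted, so an element that lies elsewhere or differs by a letter would be missed.

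The members spanned a wide range of levels. Levels in CPM are counts scaled to each library's total, with that total adjusted by TMM. They were divided by the length of each gene's exons, and the mean over the 24 libraries of this level per length is given here. Glul was the highest at 459 CPM per kb, above 99.8% of the 19693 genes with a length. Got1 followed at 140, Glud1 at 64.6 and Got2 at 41.2 CPM per kb, and the ranges of these 4 over the 24 libraries did not overlap. The carriers Slc38a2 and Slc38a3 each stood at 13 and Slc38a1 at 10.1 CPM per kb. The ranges of these 3 carriers overlapped, and their order changed when the longest transcript replaced all exons as the length: Slc38a1 then came before Slc38a3 and Slc38a2. Gls2 stood at 4.45 CPM per kb. Slc38a5 was the lowest at 0.678 CPM per kb, above 28.7% of genes, with 44 to 141 counts per library. With that length Glud1 and Got2 stood next to each other, at 80.2 and 78.5 CPM per kb (72.4 and 72.9 in syn Cre-negative brains), so their separation rests on the length used. With all exons the order was the same in every group except for Slc38a2 and Slc38a3. Slc38a3 was above Slc38a2 in the syn groups (14.5 against 13.7 CPM per kb in Cre-positive and 14.3 against 13.8 in Cre-negative brains) and below it in the gfap groups (11.4 against 12.4 and 11.7 against 12.1). The syn means include 6 libraries rich in choroid plexus RNA, described below, in which Slc38a3 was high. Without them, Slc38a3 averaged 67.2 CPM in syn Cre-positive and 64.5 CPM in syn Cre-negative brains, and Slc38a2 112 and 128 CPM. Per kb, Slc38a3 then lay below Slc38a2 in Cre-negative brains and nearly level with it in Cre-positive brains.

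**Figure D1:**
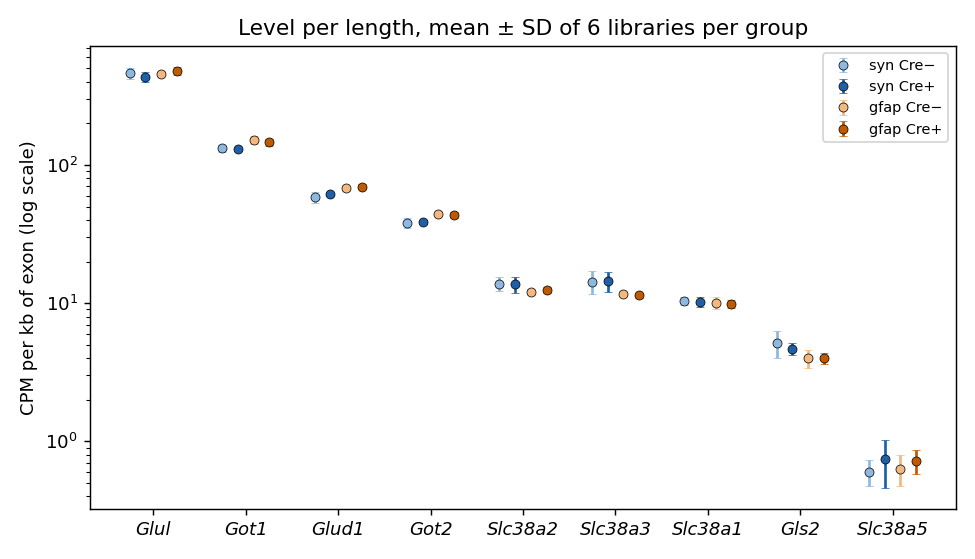
Level of each gene in CPM per kb of exon (log axis) in the 4 groups; points are means and bars SD over 6 libraries. Glul stands highest and Slc38a5 lowest in every group, and Slc38a1, Slc38a2 and Slc38a3 lie close together.

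Library depth, as the total count in genes, ran from 41596313 to 69652824. The library of lowest depth, syn Cre-negative replicate 5, stood apart in its reads: 7.46% were ambiguous between genes and 4.71% not aligned, against at most 3.92 and 2.25% in the other 23. It held its group's lowest Slc38a3 and highest Got1 and Got2 values, and 6 of 9 members were called between the lines among Cre-negative groups with it and without it. The targeted gene Slc1a2 was not called in either Cre comparison: 3012 ± 213 CPM (SD, n = 6) in syn Cre-positive, 3322 ± 98.7 in syn Cre-negative, 3480 ± 290 in gfap Cre-positive and 3518 ± 542 in gfap Cre-negative brains. Its log2 fold change was −0.14 (standard error 0.08) in the syn line and −0.01 (standard error 0.08) in the gfap line, both with an adjusted p of 1 in edgeR's quasi-likelihood F test. In the syn line 5 of 6 Cre-positive values nevertheless lay below the whole Cre-negative range, which began at 3227 CPM. Gene-level counts cannot show loss of single exons or in single cell types, so the labels could not be checked in this way, and directions below rest on the labels. The summed level of the neuron, astrocyte and oligodendrocyte marker lists was at least 2987 CPM in every library, which fits the label brain. In 6 of the 12 syn libraries, 3 per group, the choroid plexus transcript Ttr lay between 1971 and 5015 CPM, against 21.0 to 223.6 CPM in the other 18 libraries. Results that rest on these 6 libraries are given with and without them.

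**Figure D2:**
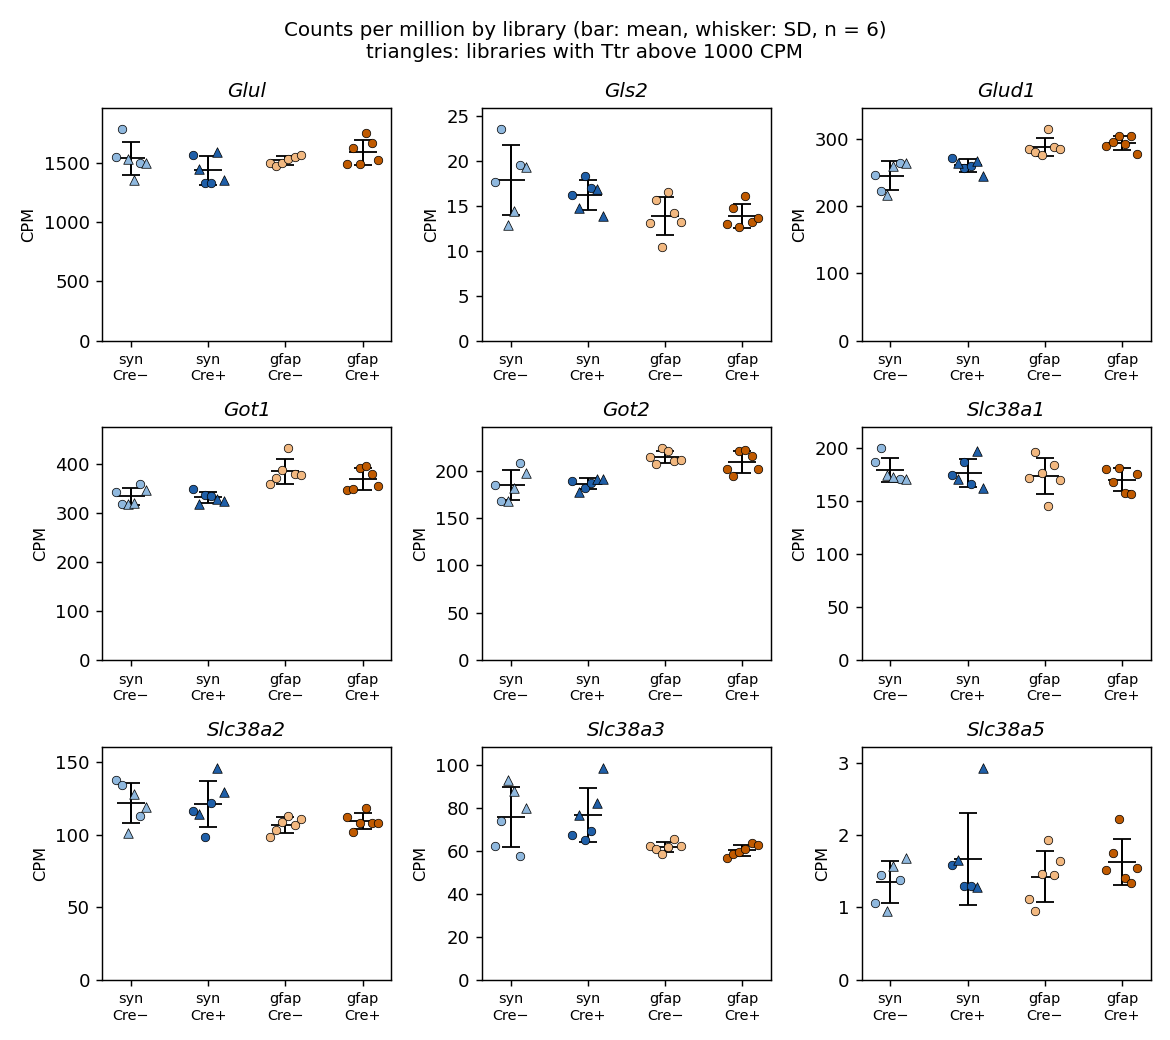
CPM of each gene in each library (points) with the mean and SD of the 6 libraries of a group; each axis starts at 0. Triangles mark the 6 libraries with Ttr above 1000 CPM. Glud1, Got1 and Got2 are lower in both syn groups than in both gfap groups, whereas Cre-positive and Cre-negative libraries of a line overlap for all 9 genes.

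The first comparison, Cre-positive against Cre-negative brains of the syn line, addresses the loss of EAAT2 from neurons. None of the 9 members changed (edgeR adjusted p of 1 for each), where 0.00507% of all tested genes (1 of 19726) were called, and none had an unadjusted p under 0.05. DESeq2 and limma-voom also called 0 members. Glul ranged from 1329 through a median of 1404 to 1597 CPM in Cre-positive brains and from 1354 through 1523 to 1792 CPM in Cre-negative brains. The 2 ranges overlapped over most of their length. Its log2 fold change was −0.10 (95% interval −0.22 to 0.02), which spans 0.86- to 1.01-fold. Glud1 was at 244, 262 and 272 CPM (lowest, median, highest) against 216, 253 and 264 CPM, with a log2 fold change of 0.09 (−0.01 to 0.19). Gls2 was at 13.9, 16.6 and 18.4 CPM against 12.9, 18.5 and 23.6 CPM, so that all Cre-positive values lay inside the Cre-negative range. The intervals of the aminotransferases were narrow: 0.929- to 1.06-fold for Got1 and 0.943- to 1.08-fold for Got2. Among the carriers, the log2 fold changes of Slc38a1, Slc38a2 and Slc38a3 were −0.03, −0.01 and 0.02. Slc38a5, the carrier with the fewest counts, had a log2 fold change of 0.30 with an interval from −0.12 to 0.73. Its level in syn Cre-positive replicate 6 was 2.93 CPM, against at most 1.66 in the other 5 of that group, and without that library the log2 fold change was 0.08; leaving out any other gave 0.22 to 0.38. For 7 of 9 members the 95% interval lay within a 1.25-fold difference in either direction. Gls2 and Slc38a5 were the exceptions, and for Slc38a5 the interval also passed 1.5-fold.

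The second comparison, in the gfap line, addresses EAAT2 deficiency in astrocytes. Again none of the 9 members changed (edgeR adjusted p of 1 for each), against 0.0101% of all tested genes (2 of 19726), and none had an unadjusted p under 0.05; DESeq2 and limma-voom again called 0. Glul, the astrocytic enzyme of the cycle, ranged from 1496 through a median of 1576 to 1752 CPM in Cre-positive and from 1473 through 1519 to 1572 CPM in Cre-negative brains. Of the 6 Cre-positive values, 3 lay above the whole Cre-negative range. The log2 fold change was 0.07 (−0.05 to 0.18). Slc38a3, the system N carrier of astrocytes, was at 56.9, 60.1 and 63.7 CPM against 58.5, 62.0 and 65.5 CPM, a log2 fold change of −0.04 (−0.24 to 0.16). The 2 groups covered nearly the same values. Of the other members, log2 fold changes lay between −0.06 for Got1 and 0.20 for Slc38a5. Intervals stayed within 1.25-fold for 8 of 9 members, all but Slc38a5, whose interval ran from −0.23 to 0.62. In both comparisons the Cre-positive and Cre-negative ranges overlapped for all 9 members. Over all genes they failed to overlap for 0.203% in the syn line and 0.198% in the gfap line.

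The 2 Cre comparisons were then set against each other, as the difference of their log2 fold changes. No member was called (edgeR adjusted p of 1 for each), and 0.0101% of all genes were (2 of 19726); 0 had an unadjusted p under 0.05, and DESeq2 and limma-voom called 0. Glul came nearest, with a log2 fold change of −0.10 in the syn line and 0.07 in the gfap line, a difference of −0.16 (−0.33 to 0.01, unadjusted p = 0.0561). The difference was −0.15 for Gls2 (−0.49 to 0.19) and lay between −0.05 and 0.11 for the other 7 members. For Glul, Gls2, Slc38a3 and Slc38a5 the interval passed 1.25-fold, so a difference of that size between the responses is not excluded. The intervals of the other members lay within that size, and smaller differences are not excluded for them.

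The other genes of these pathways were not called in the Cre comparisons either. With edgeR, DESeq2 or limma-voom, no gene passed the test among 8 genes of glutamate uptake and vesicle loading, 7 of the malate-aspartate shuttle and mitochondrial glutamate carriers, 6 tested of 7 other Slc38 carriers, 24 other enzymes of glutamate, glutamine and aspartate, and 16 amino acid response targets of ATF4. At an unadjusted p under 0.05 there were 3 such genes in the syn line and 1 in the gfap line, where 4.67% (922) and 2.99% (590) of all 19726 tested genes had such a p. List medians lay between −0.03 and 0.06, against −0.003 for all genes in either comparison. Those 3 genes were the neutral amino acid exchanger Slc1a4 (0.12, unadjusted p = 0.0303), the alanine aminotransferase Gpt2 (−0.21, unadjusted p = 0.0399) and, from the ATF4 list, the amino acid exchanger Slc7a5 (−0.19, unadjusted p = 0.00794, edgeR adjusted p = 0.841). In the gfap line it was the argininosuccinate lyase Asl (−0.21, unadjusted p = 0.0103, edgeR adjusted p = 1). Glul can be induced by glucocorticoids, so 16 glucocorticoid-induced genes were also read. Like the other lists, this one was chosen with earlier results of these data known. All 16 had negative log2 fold changes in the syn line (median −0.20; 15 of 16 with RLE or upper-quartile factors, DESeq2 or limma-voom). With edgeR 0 passed the test and 10 had an unadjusted p under 0.05, DESeq2 called 1, and the smallest p belonged to Hif3a (−1.33, unadjusted p = 5.37e-05, edgeR adjusted p = 0.168). Over all genes, 48.6% of log2 fold changes in the syn line were positive. In the gfap line 7 of the 16 were positive and 9 negative (median −0.02). Between the lines, syn minus gfap, the median of the 16 was 0.19 among Cre-negative and −0.05 among Cre-positive groups.

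**Figure D3:**
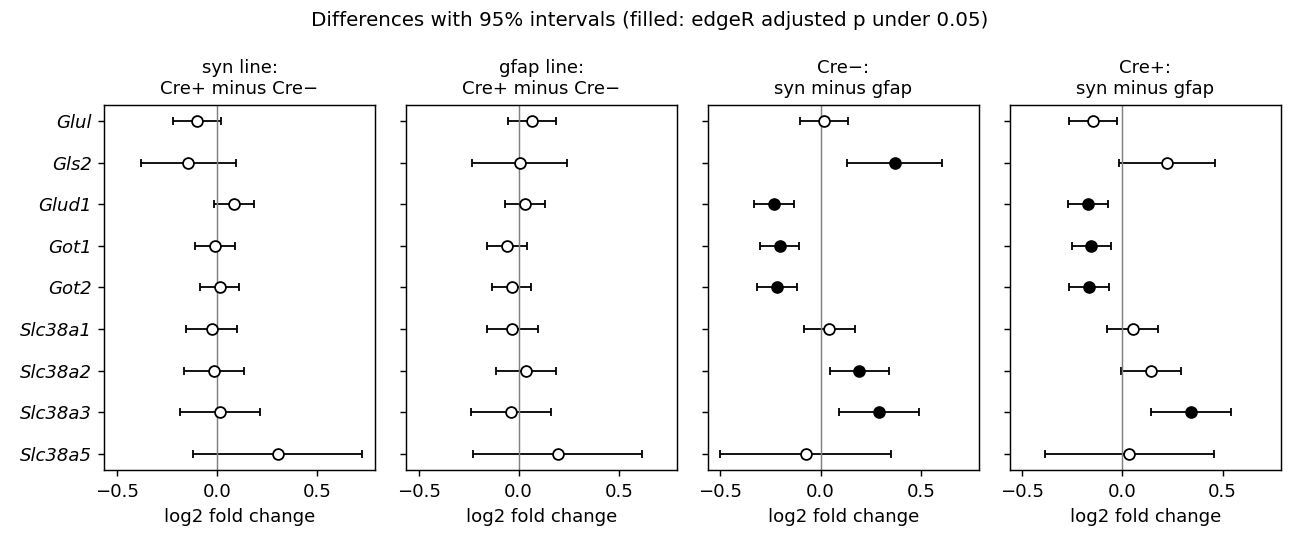
Log2 fold change of each gene with its 95% interval in the Cre comparison of each line (left pair of panels) and between the lines within Cre-negative and within Cre-positive groups (right pair). Filled points have an edgeR adjusted p under 0.05: none in the Cre comparisons, 6 of 9 among Cre-negative groups and 4 of 9 among Cre-positive groups.

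The called differences of the members lay between the mouse lines. In Cre-negative brains, which carry no labelled deletion, 3 members were lower in the syn line (Glud1, Got1 and Got2) and 3 were higher (Gls2, Slc38a2 and Slc38a3), 6 of 9 in all. That stands beside 31.2% of all tested genes (6161 of 19726) in the same comparison, 2884 of them higher and 3277 lower, and the median log2 difference was 0.02 for the members and −0.02 for all genes. The line and anything else that differed between the 2 sets of mice or libraries cannot be told apart. Reads outside genes took 7.52 to 11.1% of each syn library and 4.47 to 6.37% of each gfap library, and their part in these differences was not tested.

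Among the enzymes, Glud1, which releases ammonium from glutamate in mitochondria, was at 216, 253 and 264 CPM in syn Cre-negative brains and at 275, 285 and 315 CPM in gfap Cre-negative brains. All 6 syn values lay below all 6 gfap values, as they did for 11% of all genes in one direction or the other. The log2 difference was −0.23 (standard error 0.05, edgeR adjusted p = 0.000889). Got1, the cytosolic aspartate aminotransferase, was at 318, 332 and 358.5 CPM against 359.4, 379 and 432 CPM, again without overlap, with a log2 difference of −0.20 (standard error 0.05, edgeR adjusted p = 0.00212). Got2, its mitochondrial partner, was at 168, 183 and 208 CPM against 207, 213 and 224 CPM. In 5 of the 6 syn libraries the value lay below the gfap range. The log2 difference was −0.22 (standard error 0.05, edgeR adjusted p = 0.00139). These 3 calls held when any 1 of the 12 libraries was left out. Gls2 went the other way, at 12.9, 18.5 and 23.6 CPM against 10.4, 13.7 and 16.5 CPM. In 4 of the 6 syn libraries it lay above the gfap range and in the other 2 inside it. The log2 difference of Gls2 was 0.37 (standard error 0.12, edgeR adjusted p = 0.0171), and without syn Cre-negative replicate 2 it was 0.27 with an adjusted p of 0.0634. Glul was not called: 1354, 1523 and 1792 CPM against 1473, 1519 and 1572 CPM, a log2 difference of 0.02 (−0.10 to 0.14, edgeR adjusted p = 0.85).

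Among the carriers, Slc38a2, the system A carrier that many cell types induce when amino acids run short, was at 101, 123 and 138 CPM in syn and at 98.4, 108 and 113 CPM in gfap Cre-negative brains. In 5 of the 6 syn libraries the value lay above all gfap values. The log2 difference was 0.19 (standard error 0.07, edgeR adjusted p = 0.0422), close to the threshold, and it was called in 5 of the 12 fits that left out 1 library. It was not called without syn Cre-negative replicate 1, 2, 4 or 6 or gfap Cre-negative replicate 1, 2 or 6 (adjusted p up to 0.117). Slc38a3 was at 57.4, 76.8 and 93.0 CPM against 58.5, 62.0 and 65.5 CPM, with a log2 difference of 0.29 (standard error 0.10, edgeR adjusted p = 0.0246). Without syn Cre-negative replicate 3 or 4 it was not called (adjusted p up to 0.0783). Of the syn values, 4 lay above the gfap range, 1 inside it and 1 below it, so the syn brains were far more spread out. Slc38a1 and Slc38a5 were not called, with log2 differences of 0.04 (−0.08 to 0.17) and −0.07 (−0.50 to 0.35).

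The Cre-positive groups gave the line comparison a set of mice of its own, though their EAAT2 genotypes also differ. Here 4 of 9 members were called, beside 27.5% of all tested genes (5416 of 19726): Glud1, Got1 and Got2 were lower in the syn line and Slc38a3 was higher. Those 4 were all among the 6 called in Cre-negative groups, and 7 of 9 members had the same sign in both. Over all genes, 81.9% had the same sign, and the 3930 genes called in both with the same sign made up 63.8% of the Cre-negative calls and 72.6% of the Cre-positive calls. Glud1 was at 244, 262 and 272 CPM against 277, 294 and 304 CPM and did not overlap. Its log2 difference was −0.17 (standard error 0.05, edgeR adjusted p = 0.01). Got2 was at 177, 188 and 191 CPM against 195, 208 and 222 CPM, also without overlap, with a log2 difference of −0.17 (standard error 0.05, edgeR adjusted p = 0.0116). For Got1, at 319, 332 and 350 CPM against 347, 368 and 397 CPM, 5 of 6 syn values lay below the gfap range. The log2 difference was −0.16 (standard error 0.05, edgeR adjusted p = 0.0173). Slc38a3 was at 65.0, 72.9 and 98.6 CPM against 56.9, 60.1 and 63.7 CPM, and all 6 syn values lay above all 6 gfap values. Over all genes, 13.3% did not overlap in this comparison. The log2 difference of Slc38a3 was 0.34 (standard error 0.10, edgeR adjusted p = 0.0112). Gls2 (0.22, edgeR adjusted p = 0.158), Slc38a2 (0.14, edgeR adjusted p = 0.143) and Glul (−0.15, edgeR adjusted p = 0.0593) were not called. Without syn Cre-positive replicate 6, Glud1 (edgeR adjusted p = 0.053) and Got1 were no longer called, which left Got2 and Slc38a3, 2 of 9. Some settings added calls. Glul was called without syn Cre-positive replicate 1 or 5 or gfap Cre-positive replicate 1 (edgeR adjusted p down to 0.0274), with no filter and with limma-voom, and Slc38a2 without syn Cre-positive replicate 3 (edgeR adjusted p = 0.0374). Got1 was also lost without gfap Cre-positive replicate 3 or 5 (adjusted p up to 0.0656). With upper-quartile scaling, or a filter of 1 CPM in 6 libraries, only Slc38a3 was called.

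Slc38a3 was high in the libraries that held choroid plexus RNA. In syn Cre-positive brains it was 76.7 to 98.6 CPM in the 3 libraries with Ttr above 1000 CPM and 65.0 to 69.1 CPM in the other 3. In syn Cre-negative brains it was 79.8 to 93.0 CPM in the 3 high-Ttr libraries and 57.4 to 73.8 CPM in the other 3. In both groups the high-Ttr libraries lay above the rest without overlap, and no other member showed such a gap in both groups. Got1 was lower without overlap in the high-Ttr libraries of syn Cre-positive brains (319.3 to 328.9 against 334.6 to 350.1 CPM). In syn Cre-negative brains its values overlapped. The whole list of 9 choroid plexus markers summed to 74.7 to 5166 CPM in syn Cre-positive, 109 to 5447 in syn Cre-negative, 56.1 to 281 in gfap Cre-positive and 56.2 to 211 CPM in gfap Cre-negative libraries. Without the 6 high-Ttr libraries, the log2 difference of Slc38a3 between lines was 0.08 (edgeR adjusted p = 0.43) among Cre-negative and 0.18 (edgeR adjusted p = 0.0677) among Cre-positive groups. The counts of members called were then 4 of 9 and 0 of 9. Calls over all genes fell as well, from 6161 to 3647 among Cre-negative and from 5416 to 2259 among Cre-positive groups. Among Cre-negative groups the 4 were Gls2 (0.57, edgeR adjusted p = 0.00245), Slc38a2 (0.28, adjusted p = 0.00869), Glud1 (−0.22, adjusted p = 0.0107) and Got2 (−0.18, adjusted p = 0.0356). Got1 was then at −0.16 (edgeR adjusted p = 0.0664). Among Cre-positive groups Glud1, Got1 and Got2 were at −0.13, −0.09 and −0.14 (edgeR adjusted p = 0.126, 0.334 and 0.122). These fits had 3 syn libraries a group in place of 6.

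**Figure D4:**
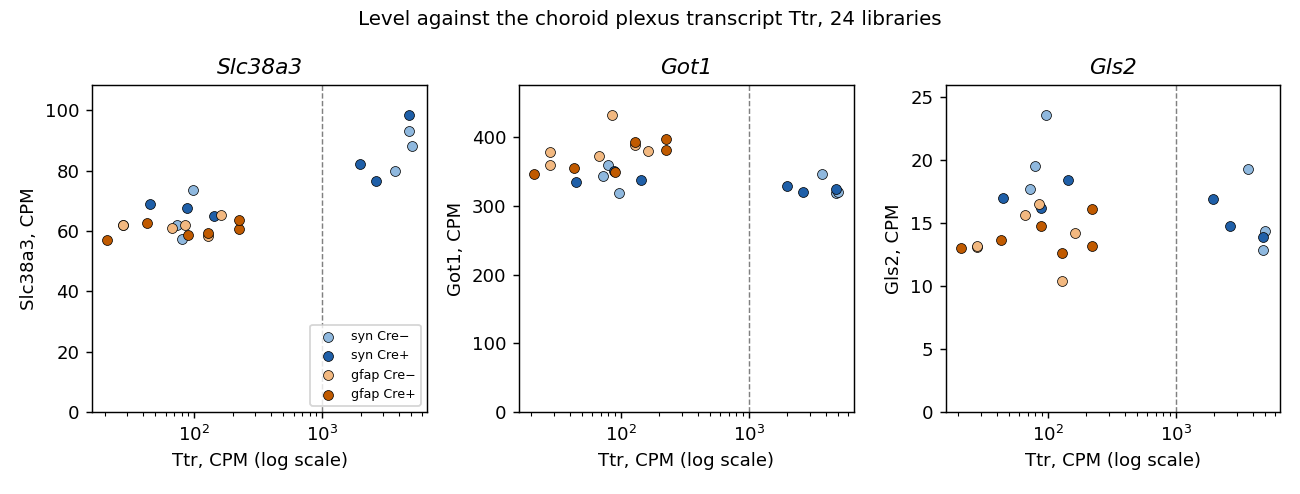
CPM of Slc38a3, Got1 and Gls2 (vertical axes, from 0) against Ttr (log axis) in the 24 libraries, coloured by group; the dashed line marks 1000 CPM. The 6 libraries to the right of the line hold the highest Slc38a3 values, 76.7 to 98.6 CPM, and are not separated from the other syn libraries for Gls2. For Got1 they lie below the rest of their group in syn Cre-positive but not in syn Cre-negative brains.

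Markers of the main cell classes also differed between the lines, where 31.2% (Cre-negative) and 27.5% (Cre-positive) of all genes were called. Of 10 neuron markers, 9 were lower in the syn line among Cre-negative and 7 among Cre-positive groups (medians −0.22 and −0.20), and none was higher. The neurofilament gene Nefl had the smallest p, at −0.33 and −0.29. Their summed level was 7614 to 8499 CPM in the syn libraries of the Cre-negative groups and 9145 to 9881 CPM in the gfap ones, and 7741 to 8203 against 8877 to 9912 CPM in the Cre-positive groups. Of 10 oligodendrocyte markers, 9 and 10 were higher (medians 0.38 and 0.57), with sums of 5724 to 8866 against 4353 to 5570 CPM and of 6129 to 8202 against 3866 to 5708 CPM. Of 13 astrocyte markers, 1 was higher and 2 lower, and 2 were higher and 3 lower (medians −0.09 and −0.10). Without the 6 high-Ttr libraries, 4 neuron markers were lower in each comparison and 9 and 8 oligodendrocyte markers higher. The counts that follow again include all libraries. Of 8 endothelial markers 4 and 6 were lower, of 9 microglial markers 1 and 3 were lower, and of 9 choroid plexus markers 9 and 7 were higher (medians 3.68 and 3.00). Of 8 markers of cortex and hippocampus, 3 and 4 were lower and none was higher (medians −0.18 and −0.21). They summed to 480 to 571 CPM in syn against 548 to 706 CPM in gfap Cre-negative libraries, and to 449 to 544 against 597 to 661 CPM in Cre-positive ones, the latter without overlap. Among the other region lists, of 6 tested cerebellar markers 1 was lower, and 2 were higher and 1 lower. Of 3 tested markers of thalamus, midbrain and hindbrain 1 was lower, and 1 was higher and 1 lower. None of 7 striatal markers was called in either comparison, and of 7 meningeal markers 2 and 0 were higher. The part of these marker differences in the members' values was not tested.

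Partners of the aminotransferases in the malate-aspartate shuttle were lower as well. Of 7 genes of the shuttle and of mitochondrial glutamate transport, 5 were lower and 1 higher in the syn line, in Cre-negative and in Cre-positive groups alike, against the 31.2% and 27.5% of all genes called. The list's medians were −0.18 and −0.17, and all genes had medians of −0.02. The lower genes were the malate dehydrogenases Mdh1 and Mdh2, the oxoglutarate-malate carrier Slc25a11 and the glutamate carriers Slc25a18 and Slc25a22. In Cre-negative groups the oxoglutarate-malate carrier Slc25a11 had the smallest p, at 87.5 ± 7.06 against 106 ± 14.0 CPM (SD, n = 6), a log2 difference of −0.28 (edgeR adjusted p = 0.00306). In Cre-positive groups Mdh2 did, at 272 ± 16.3 against 314 ± 25.7 CPM and −0.21 (edgeR adjusted p = 0.0136). The higher gene was Slc25a13, an aspartate-glutamate carrier that is low in brain, at 3.23 ± 1.08 against 1.89 ± 0.221 CPM among Cre-negative groups (log2 difference 0.77, edgeR adjusted p = 0.00515). Its brain partner Slc25a12 was not called in either. Without the 6 high-Ttr libraries 1 shuttle gene was lower among Cre-negative groups and 0 among Cre-positive groups, though 6 of 7 log2 differences stayed negative in both. With upper-quartile factors 3 and 0 were lower, and with RLE factors 4 and 1.

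The other Slc38 carriers and glutamate enzymes were mixed. Their counts stand beside 31.2% of all genes called among Cre-negative and 27.5% among Cre-positive groups. Of 6 tested Slc38 carriers beyond the members, 2 were higher in the syn line in both comparisons. These were Slc38a6, a less studied carrier of the family, at 10.7 ± 1.58 against 6.30 ± 1.18 CPM among Cre-negative groups (log2 difference 0.76, edgeR adjusted p = 0.000125), and the lysosomal amino acid sensor Slc38a9, at 27.8 ± 1.89 against 21.5 ± 1.76 CPM (0.37, edgeR adjusted p = 0.000502). In Cre-positive groups they stood at 0.70 and 0.27. Of 8 genes of glutamate uptake and vesicle loading, 4 and 5 were lower and none was higher. The smallest p values among Cre-negative groups belonged to the neuronal transporter Slc1a1 (−0.25), the exchanger Slc1a4 (−0.19) and the vesicular transporter Slc17a7 (−0.24), and among Cre-positive groups to Slc1a1 (−0.26), the astrocytic transporter Slc1a3 (−0.23) and Slc17a7 (−0.31). The targeted gene Slc1a2 was also among the 5 that were lower in the Cre-positive groups (−0.21, edgeR adjusted p = 0.044), and it was not called among Cre-negative groups (−0.08, edgeR adjusted p = 0.437). Without the high-Ttr libraries 2 and 3 of the 8 were lower. Of 24 other enzymes, 3 were higher and 3 lower among Cre-negative groups and 3 higher and 2 lower among Cre-positive groups, and without the high-Ttr libraries 3 higher and 0 lower in each. The GABA-forming decarboxylase Gad1 was lower in both (−0.19 and −0.20), the aspartate-consuming pyrimidine enzyme Cad led the Cre-negative groups (0.32, edgeR adjusted p = 0.003), where the N-acetylaspartate synthase Nat8l was lower (−0.25). The oligodendrocyte enzyme Aspa, which breaks down N-acetylaspartate, led the Cre-positive groups (0.62, edgeR adjusted p = 0.00132), where the alanine aminotransferase Gpt was higher too (0.38).

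Genes of 2 regulatory programmes that can act on members were read in the same comparisons, where 31.2% and 27.5% of all genes were called. Of 16 ATF4 targets, 1 was lower among Cre-negative groups, the asparagine synthetase Asns, which is also among the 24 enzymes (−0.17, edgeR adjusted p = 0.0192), and 0 among Cre-positive groups, where Slc7a5 had the smallest p (−0.15, edgeR adjusted p = 0.0976). Of 16 glucocorticoid-induced genes, 4 were higher among Cre-negative groups, led by Plin4 (2.31), Hif3a (1.39) and Sult1a1 (0.45), and 1 was lower among Cre-positive groups, Fkbp5 (−0.36). Plin4 ranged from 4.25 to 23.2 CPM within the syn Cre-negative group alone.

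**Figure D5:**
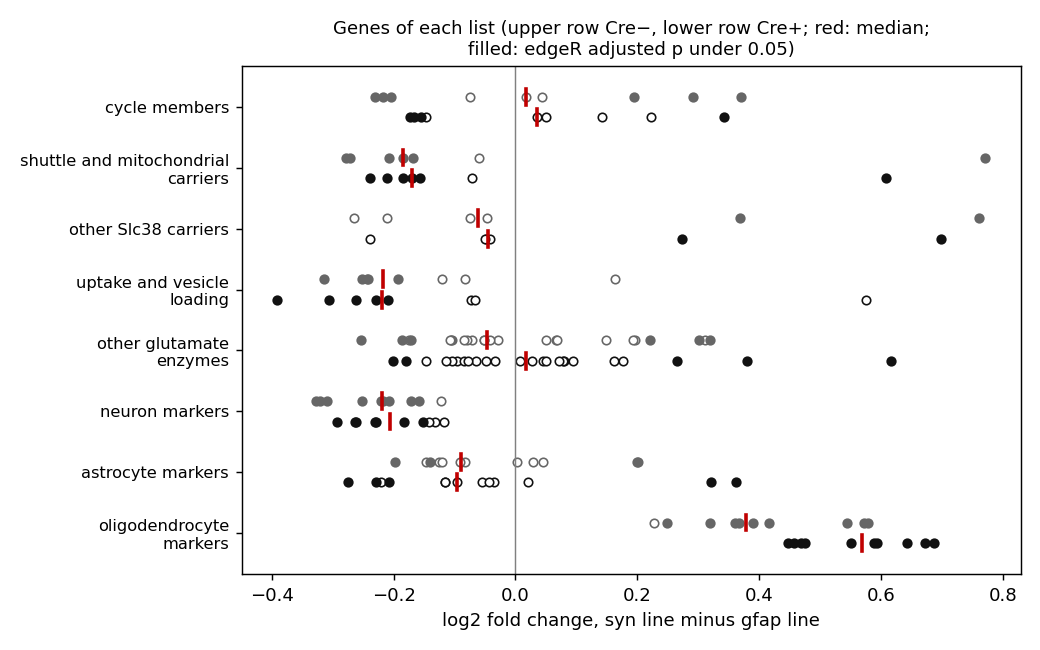
Log2 difference of every gene in each list between the syn and gfap lines, with Cre-negative groups in the upper and Cre-positive groups in the lower row of each pair; red bars are medians and filled points have an edgeR adjusted p under 0.05. Shuttle genes and neuron markers lie mostly below 0 (medians −0.18 and −0.17, −0.22 and −0.20), oligodendrocyte markers above 0 (0.38 and 0.57), and the members on both sides.

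Ratios between members, taken within each library on the level per length, show which members moved together. Got2 stood at 0.295 ± 0.011 of Got1 (SD, n = 6) in syn Cre-positive, 0.290 ± 0.0121 in syn Cre-negative, 0.298 ± 0.00453 in gfap Cre-positive and 0.294 ± 0.0149 in gfap Cre-negative brains. The ratio thus varied by less than the spread in any comparison, although both genes were lower in the syn line. The ratio of Glul to Gls2 was 93.7 ± 11.8 and 92.9 ± 17.6 in the syn groups (Cre-positive and Cre-negative) and 120 ± 7 and 118 ± 19.7 in the gfap groups. Among the 4 carriers, Slc38a3 made up 36.9 ± 2.94% and 36.5 ± 5.38% of their summed level per length in the syn groups and 33.2 ± 1.51% and 33.9 ± 1.15% in the gfap groups. The syn shares include the high-Ttr libraries, in which Slc38a3 was high, and were not taken without them. Slc38a5 made up 1.54 to 2.11% on average in all 4 groups.

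Variation within the groups was described by Pearson's r of log2 CPM after the group means were taken out, over the 24 libraries, which share tissue makeup and library handling. Among member pairs, r was 0.75 for Got1 with Got2, 0.64 for Glud1 with Got2 and 0.62 for Glud1 with Got1, the 3 highest values, and −0.45 for Gls2 with Slc38a3, the lowest. Glul had r = 0.79 with the mean of the astrocyte markers and −0.07 with that of the neuron markers, whereas Got1 and Got2 had 0.63 and 0.69 with the neuron markers and 0.21 and −0.02 with the astrocyte markers. Gls2 had 0.58 with the astrocyte markers, but its highest value was 0.68, with the markers of cortex and hippocampus. It also had 0.56 with those of thalamus, midbrain and hindbrain, 0.54 with the ATF4 targets and −0.51 with those of choroid plexus. Glul had 0.56 with the glucocorticoid-induced genes, 0.53 with the oligodendrocyte and 0.51 with the microglial markers. Got1 had 0.5 with the markers of cortex and hippocampus. Slc38a3 had 0.84 with the choroid plexus, 0.72 with the meningeal and −0.67 with the neuron markers, and Slc38a2 had 0.53 with the striatal ones. The 3 genes most like each member were taken from 10489 expressed genes, less those with only a provisional name. For Glul they were Stard3 (0.83), Ddah1 (0.79) and Rab31 (0.79), and for Gls2 Mapk11 (0.89), Astn2 (0.86) and Ubqln4 (0.85). Glud1 was most like Ccndbp1 (0.87), Lxn (0.8) and Lias (0.8), the last a lipoic acid synthase of mitochondria. Got1 was most like Tmem59l (0.93), Sult4a1 (0.92) and P4htm (0.91), and Got2 like Tmem179 (0.89), the tubulin Tubb5 (0.88) and Cend1 (0.87). Among the carriers, Slc38a1 was most like Adarb1 (0.86), the potassium channel Kcna2 (0.86) and Dennd5b (0.85), and Slc38a2 like Surf6 (0.78), Aif1l (0.74) and Iffo2 (0.72). For Slc38a3 they were Lgals3bp (0.94), the anion exchanger Slc4a2 (0.92) and the collagen Col9a3 (0.9); the syn libraries fall into the high-Ttr and low-Ttr sets given above, so these values describe 2 sets more than a gradient. Slc38a5, with few counts, had its highest values with Pusl1 (0.74), Ppp1r1a (0.73) and Mgat4b (0.71).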

How the data were processed

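Brain RNA of 24 mice (4 groups of 6) was read from count tables that the authors deposited: whole-number counts per gene, not normalized, 1 table per library. Per the submitters' processing notes, the tools were HISAT2, HTSeq 0.6.0 and DESeq2 1.6.3 with build mm10, in no stated order or role. Annotation release and strand setting: not given in the sources used here. Summary lines that name no gene entered neither library sizes nor tests; they held reads outside genes, 4.47 to 11.1% of each file total, ambiguous 3.19 to 7.46%, and reads with several alignments 13.7 to 15.6%, so reads shared with processed copies of Glud1 and Got2 did not enter. Symbols came from GENCODE M21 for 99.7% of 52636 identifiers.

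Groups follow the labels for line and genotype. Genes passing filterByExpr (19726) were scaled by TMM and fitted in 1 model of 4 groups in edgeR 4.0.16 (R 4.3.3) with robust quasi-likelihood estimation (20 residual degrees of freedom, common dispersion 0.0198). P values are from the quasi-likelihood F test, adjusted by Benjamini-Hochberg over all genes, called under 0.05, and measure the spread between mice. Intervals are 95%. CPM values use TMM-scaled library sizes, log2 CPM a prior count of 2. In simulated counts that gave every gene the common dispersion, the test recovered most of the largest known changes. No recovery rate is given here for changes as small as those of the members. The 60 pairs of libraries within groups all differed by more than counting noise (chi-square per gene 6.65 to 134). Alternatives used RLE and upper-quartile scaling, other filters, DESeq2 1.42.0, limma-voom (limma 3.58.1), single groups, and libraries left out.

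The members and all lists were chosen with earlier results of these data known. The text names the 9 members, Slc1a2, up to 3 called genes per pathway or regulatory list and comparison by smallest p (or the gene with the smallest p where none was called), at most 2 per cell type list, and the 3 genes most like each member. The shuttle genes that were lower are named in full, chosen after their values were seen.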

Additional observations from a re-analysis of the deposited data

Results flagged for a closer look

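Values were examined for a library standing apart in 40 groups of 6 (9 members and Slc1a2 in 4 groups), by the gap to the nearest library over the group's whole range, with Dixon's 95% value of 0.625. There were 4 such values, in 2 libraries that each stood apart for 2 genes, and chance gives about 1 in 20 groups. Glud1 in gfap Cre-negative replicate 4 was the highest of its group at 315 CPM, with the next at 287.2 CPM. Slc38a5 in syn Cre-positive replicate 6, a library with high Ttr, was at 2.929 CPM, with the next at 1.658 CPM. Slc1a2 was lowest in syn Cre-positive replicate 6 (2616 CPM, next 3009) and in gfap Cre-negative replicate 4 (2494 CPM, next 3430). Without syn Cre-positive replicate 6 the Cre-positive line comparison called 2 of 9 members in place of 4.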

How the results depend on the processing

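No paired analysis was possible because replicate numbers follow accession order and the labels pair no mice across groups; numbers in the sample titles, whose meaning the labels do not give, were not used. No member was called in either Cre comparison or their difference under any scaling, filter, tool or left-out library that was run. Among Cre-negative groups 4 to 6 of 9 members were called throughout, leave-one-out fits included. Among Cre-positive groups 4 were called, against 1 with upper-quartile factors, 1 with a 1 CPM filter, 0 without the 6 high-Ttr libraries and 2 to 5 with 1 library left out; the cause was not tested, and the fits without high-Ttr libraries had fewer samples. Over all genes, fits with 1 library left out called 4878 to 6370 genes among Cre-negative groups, beside 6161 with every library. Among Cre-positive groups they called 3978 to 5239, beside 5416. No called member reversed.

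Uncalled log2 values near 0 changed sign. With RLE factors and with DESeq2, Gls2 in the gfap line was −0.002. With no filter Glul between Cre-negative groups was −0.001. With limma-voom, Got2 and Slc38a3 in the syn line were −0.007, Slc38a5 was −0.073 in the difference, 0.015 between Cre-negative and −0.057 between Cre-positive groups, and Glul and Slc38a1 between Cre-negative groups were −0.007 and −0.001. Without high-Ttr libraries Got1 in the syn line was 0.01, Slc38a1 and Slc38a5 in the difference were −0.039 and −0.083, and Slc38a5 between Cre-positive groups was −0.199. With 1 library left out, values in the syn line ranged from −0.023 to 0.013 (Got1), −0.011 to 0.051 (Got2), −0.059 to 0.009 (Slc38a1), −0.074 to 0.04 (Slc38a2) and −0.067 to 0.083 (Slc38a3); in the gfap line from −0.069 to 0.059 (Gls2) and −0.081 to 0.006 (Slc38a1); in the difference from −0.03 to 0.058 (Slc38a1), −0.11 to 0.004 (Slc38a2), −0.029 to 0.12 (Slc38a3) and −0.118 to 0.219 (Slc38a5); and between lines from −0.032 to 0.05 (Glul, Cre-negative), −0.171 to 0.045 and −0.178 to 0.144 (Slc38a5, Cre-negative and Cre-positive).

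Over all genes, the syn Cre comparison called 1 gene, against 5 with no filter, 14 with DESeq2, 7 with limma-voom, 2 with its own groups alone and 3 without high-Ttr libraries, and 1 to 3 with 1 library left out. Without high-Ttr libraries the line comparisons called 3647 (Cre-negative) and 2259 (Cre-positive). The share of calls higher in the syn line moved from 46.8 to 58.5% (Cre-negative) and from 46.5 to 65.5% (Cre-positive) with upper-quartile factors, and to 58% (Cre-positive) with RLE factors. Low counts limit Slc38a5, whose intervals passed 1.5-fold in the Cre comparisons.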
